A study of Mus musculus with 8 samples.

Results

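Interstitial cells of Cajal (ICC) of both small-intestinal classes were compared jointly with the whole muscle coat they come from. Labelled cells were isolated from BALB/c mice, 6 to 9 days old, out of the small intestine, and each sample was measured on 1 expression array. ICC-DMP, the class of the deep muscular plexus, had 3 arrays, ICC-MY, the class of the myenteric region, had 3, and the tunica muscularis, the muscle layers as tissue, had 2. No transgene, treatment or second genotype is given for any group, and all 3 groups share strain, age, organ, RNA method and amplification. The ICC samples were isolated cells and the tunica muscularis was tissue, so cell isolation and cell identity cannot be told apart here. The difference reported for a gene is the mean of the ICC-DMP and ICC-MY group means minus the tissue mean, on the log2 scale of the deposited values, so 1 unit is a 2-fold difference. All 8 arrays of the series enter it, and 18193 genes were measured, each through its brightest probe set on average.

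A gene was counted as shared by both classes when all 6 ICC arrays lay on one side of both tissue arrays and the class means differed by less than 1 log2. That rule found 989 genes higher in ICC, 5.44% of all genes, and 2288 lower, 12.6%. These counts follow from the measured values and are a description. The limma model, which tests every gene and adjusts p by Benjamini-Hochberg over all 18193 genes, called a gene at an adjusted p under 0.05. It called 2366 genes, 13.0% of all, of which 671 (3.69%) were higher and 1695 (9.32%) lower in ICC. Of the genes called, 365 higher (2.01% of all genes) and 1341 lower (7.37%) were also shared. Shared genes thus made up 54.4% of the genes called higher and 79.1% of those called lower. The split depended on scaling: after quantile normalization between arrays 1976 genes were called higher and 1971 lower, with 1354 and 1519 of them shared. It also depended on single arrays: without tissue replicate 1 limma called 305 higher and 1627 lower, and without MY replicate 1 it called 1139 and 1832; shared genes numbered 2598 higher and 4736 lower without tissue replicate 1, 2931 and 4032 without tissue replicate 2 and 1567 higher without MY replicate 1, and those also called higher 151, 370 and 647, or 236 without DMP replicate 1.

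ICC are mesenchymal cells of the gut wall that generate the electrical slow wave and relay signals from enteric nerves to smooth muscle. Signalling through the receptor tyrosine kinase Kit maintains them, and calcium released from their stores opens the chloride channel Ano1 to produce pacemaker current. The muscle coat holds ICC among smooth muscle, enteric neurons and glia, macrophages, fibroblasts, blood vessels and an outer covering of mesothelium. A gene lower in ICC than in this tissue can therefore be a gene of another cell, and in bulk RNA fewer cells of a type and less RNA per cell cannot be told apart.

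The arrays had medians of 4.18 to 4.31 log2. MY replicate 1 and tissue replicate 1 had a narrower spread, with an SD over genes of 1.98 and 2.06 against 2.22 to 2.31 on the other 6. The 3' minus 5' signal of the actin control probe sets, a sign of RNA length, was 4.66 on DMP replicate 3 and 4.28 on MY replicate 3, and 2.53 to 3.53 elsewhere. Eif2s3y, a Y-linked gene, read 2.30 on tissue replicate 1, 8.01 on tissue replicate 2 and 6.04 to 7.13 in ICC, so the tissue arrays differed in this transcript. The X-inactivation RNA Xist, at 10.86 to 12.05 in ICC and 9.74 and 9.54 in tissue, was itself a shared gene, with a difference of 1.90. All ICC arrays and tissue replicate 2 thus read both Xist and Eif2s3y above the array medians, while tissue replicate 1 did so for Xist only. No detection call per probe set was used, so where 1 side lies below the array medians, as for Fosb in tissue or Vip in ICC, the size of a difference is read as a lower bound. The part of sex or array spread in other results was not tested. Titles speak of biological replicates without saying whether these were separate animals, so p-values measure the spread between these samples, which may be partly technical.

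**Figure D1:**
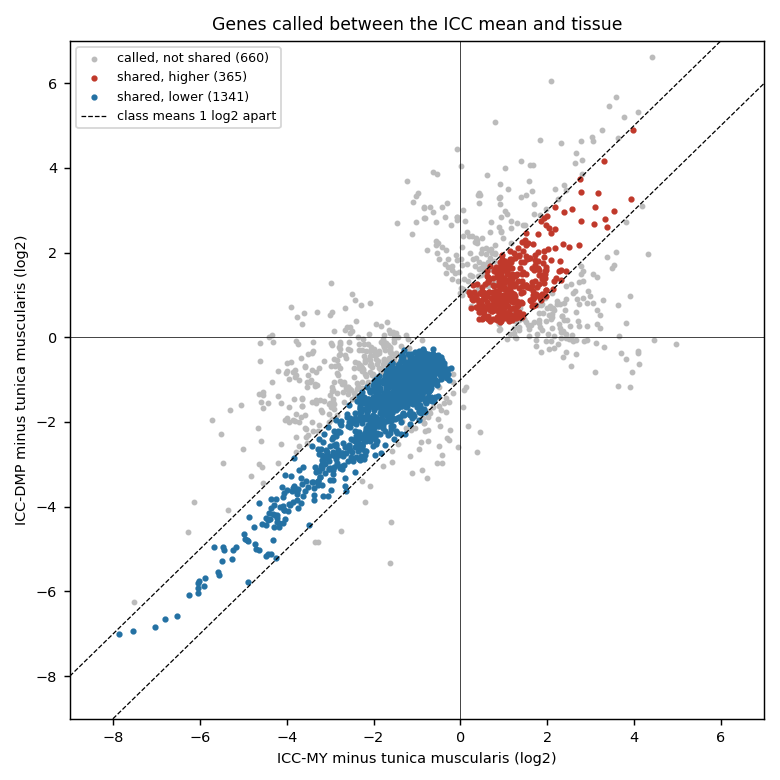
Each point is 1 of the 2366 called genes, placed by its difference in ICC-MY minus tissue (x axis, log2) and in ICC-DMP minus tissue (y axis, log2). The 365 shared genes higher (red) and 1341 shared genes lower (blue) lie between the dashed lines, where class means are under 1 log2 apart, because the rule puts them there; both axes use the same 2 tissue arrays.

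All 4 marker genes named for ICC were higher in ICC than in tissue. Kit, the receptor that defines these cells, read 11.07, 11.34 and 10.84 on the ICC-DMP arrays, 10.81, 12.42 and 11.99 on the ICC-MY arrays, and 7.20 and 8.43 in tissue. Every ICC array exceeded both tissue arrays, and the difference was 3.60 (SE 0.45, 12.1-fold, adjusted p = 0.0011). Atp2a3, the calcium pump SERCA3 that refills intracellular stores, read 9.30, 9.28 and 9.96 on the ICC-DMP arrays, 9.06, 10.56 and 10.50 on the ICC-MY arrays, and 6.42 and 7.01 in tissue. It too was above tissue on all 6 ICC arrays, by 3.06 (SE 0.41, adjusted p = 0.0017).

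Ano1, the calcium-activated chloride channel, read 12.92, 13.20 and 13.22 on the ICC-DMP arrays, 12.20, 13.55 and 13.41 on the ICC-MY arrays, and 10.29 and 11.76 in tissue. The ICC arrays lay above both tissue arrays, but tissue replicate 2 came close to the lowest ICC array. The difference was 2.06 (SE 0.44, adjusted p = 0.0177), and without tissue replicate 1 it was 1.32 with an adjusted p of 0.136. Elovl6, a fatty acid elongase, read 10.45, 10.33 and 10.45 on the ICC-DMP arrays, 10.81, 12.19 and 12.02 on the ICC-MY arrays, and 8.76 and 9.07 in tissue. All ICC arrays were above tissue, by 2.13 (SE 0.33, adjusted p = 0.00362), yet ICC-MY exceeded ICC-DMP by 1.27, so Elovl6 fell outside the shared set. With the 6 ICC arrays fitted as 1 group its adjusted p was 0.0566. These markers became known in part from profiles of such cells, and they check the label only.

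Of 16 measured genes on a wider ICC list, 10 were called higher, only 4 of which were shared, and none lower, with a median difference of 1.58 against -0.023 over all genes. Without tissue replicate 1, 5 of them were called higher. The pacemaker-related calcium channel gene Cacna1d was shared, at 7.34, 7.23 and 7.51 on the ICC-DMP arrays, 7.33, 7.35 and 7.70 on the ICC-MY arrays, and 5.93 and 5.61 in tissue. Its lowest ICC value was above the higher tissue value, and the difference was 1.64 (SE 0.17, adjusted p = 0.00037). Edn3, endothelin 3, differed by 1.84 (SE 0.37), and Cd44, a hyaluronan receptor, by 1.53 (SE 0.27). Both means joined unequal classes, with ICC-DMP minus ICC-MY at -3.622 for Edn3 and -1.762 for Cd44. Without tissue replicate 1 neither was called by limma, with adjusted p-values of 0.0764 for Edn3 and 0.0676 for Cd44, and Edn3 was at 0.0731 without tissue replicate 2. Members not called included the chloride loader Slc12a2 (0.95), the gap junction gene Gja1 (0.74), Cacna1h (0.87) and the potassium channel gene Kcnma1 (-0.73). With the replicate number as a block Slc12a2 was called higher (adjusted p = 0.0445) and Kcnma1 lower (adjusted p = 0.0203). The tissue arrays, which hold ICC as well, read 12.63 and 13.93 for the summed level of the list, against 14.34 to 15.76 in ICC.

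**Figure D2:**
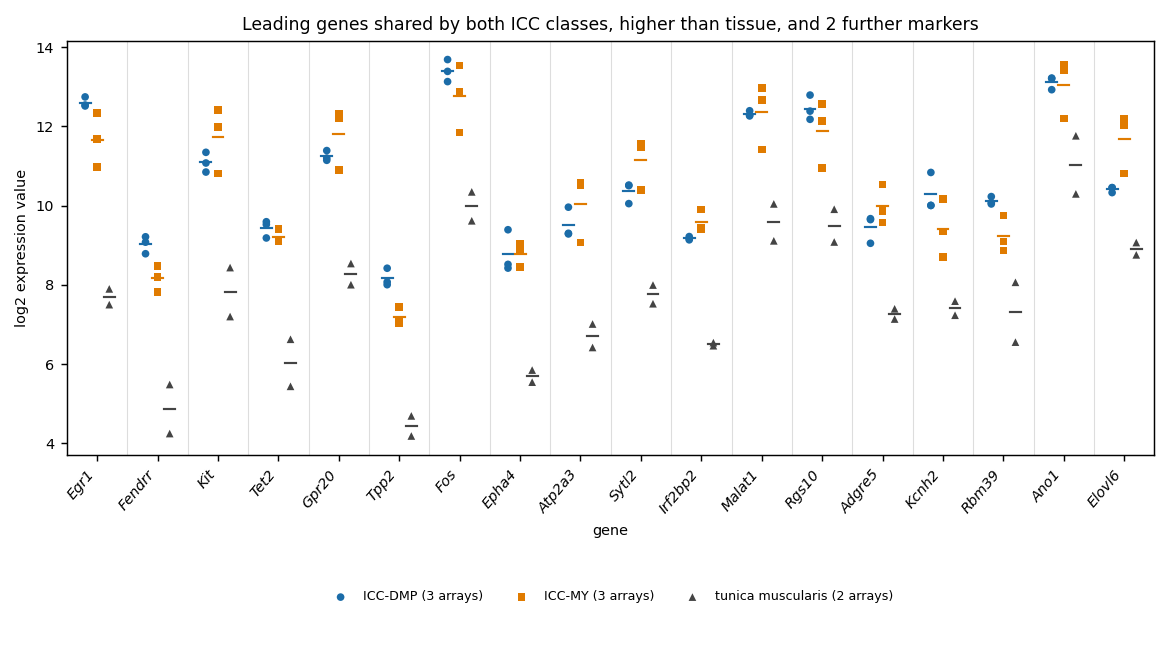
Log2 expression value (y axis) on each array for the leading shared genes higher in ICC and for 2 further ICC markers, with points for arrays and short lines for group means. The 6 ICC arrays lie above both tissue arrays for each gene; Elovl6 is drawn as a marker outside the shared set, its ICC-MY arrays reading 10.81 to 12.19 and its ICC-DMP arrays 10.33 to 10.45.

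The shared gene with the largest rise was Egr1, an immediate early transcription factor, at 12.51, 12.74 and 12.54 on the ICC-DMP arrays, 10.98, 12.33 and 11.68 on the ICC-MY arrays, and 7.90 and 7.50 in tissue. Its ICC values exceeded tissue by 4.43 (SE 0.31, 21.6-fold), with no overlap. Next came Fendrr, a long noncoding RNA of lateral plate mesoderm, at 9.08, 8.78 and 9.21 on the ICC-DMP arrays, 7.82, 8.48 and 8.19 on the ICC-MY arrays, and 4.25 and 5.48 in tissue. The ICC-DMP arrays were somewhat above the ICC-MY arrays, and the mean difference was 3.73 (SE 0.32). Fendrr lies beside Foxf1 on chromosome 8, and Foxf1, a forkhead factor of gut mesenchyme, was shared too, at 9.47, 9.39 and 9.30 on the ICC-DMP arrays, 9.11, 9.31 and 9.43 on the ICC-MY arrays, and 7.04 and 7.67 in tissue. Both classes stood at about one Foxf1 level above tissue, by 1.98 (SE 0.19).

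Tet2, an enzyme that oxidises methylated cytosine, was at 9.52, 9.18 and 9.59 on the ICC-DMP arrays, 9.10, 9.40 and 9.12 on the ICC-MY arrays, and 5.44 and 6.62 in tissue. No ICC array came within 2 log2 of tissue, and the difference was 3.29 (SE 0.29). Gpr20, an orphan G protein-coupled receptor, read 11.14, 11.20 and 11.39 on the ICC-DMP arrays, 10.90, 12.31 and 12.19 on the ICC-MY arrays, and 8.002 and 8.54 in tissue. All ICC arrays were higher than tissue, by 3.25 (SE 0.36). Epha4, an ephrin receptor, read 8.52, 9.39 and 8.42 on the ICC-DMP arrays, 8.46, 9.02 and 8.87 on the ICC-MY arrays, and 5.54 and 5.85 in tissue. Its class means were 0.01 apart and exceeded tissue by 3.08 (SE 0.28), and all 4 other probe sets of the gene went the same way.

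Further leading members included Sytl2, a vesicle-tethering protein (2.99, SE 0.32), Irf2bp2, a transcriptional corepressor (2.87, SE 0.16), and Adgre5, an adhesion G protein-coupled receptor (2.46, SE 0.27). The actin motor Myo6 (2.32), the mTORC2 subunit Rictor (2.28) and the teneurin Tenm4 (1.99) followed. Among them were the nuclear long noncoding RNAs Malat1 at 12.28, 12.39 and 12.26 on the ICC-DMP arrays, 11.42, 12.97 and 12.67 on the ICC-MY arrays, and 9.11 and 10.04 in tissue, and Kcnq1ot1 with a difference of 2.31 (SE 0.23). Malat1 was higher by 2.76 (SE 0.40) and all 6 of its other probe sets were called the same way. The splicing factor Rbm39 was higher by 2.37 (SE 0.38), with 9 of 11 other probe sets called the same way. Other leaders rested on 1 probe set against the rest: of 4 other probe sets, 1 went the same way for Tpp2 (3.23) and 1 for Ccnt2 (2.27), and 0 of 2 did for Phf6 (2.31) and 0 of 1 for Mapk8ip1 (2.05).

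Over the 365 shared genes called higher the median difference was 1.12, and 216 differed at least 2-fold and 9 at least 8-fold. Of these 365 genes, 250 had another probe set, for 161 of them every other probe set went the same way, for 101 at least 1 was called the same way, and for 3 one was called the opposite way. In 16 pairs the genes were neighbours on a chromosome, as were Rgs10 with Tial1 and Slc4a3 with Epha4. The number of pairs that a random choice of 365 genes would give was not worked out, so the count shows no clustering. Long noncoding RNAs made up 5.77% of the 364 genes with a known place, against 8.04% of all measured genes.

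Transcription factors of the AP-1 family, dimers of FOS and JUN proteins that appear within minutes of a growth or stress signal, were higher in ICC for 6 of 16 measured members, and none was lower. The list's median was 0.44. Fos was the shared member, at 13.13, 13.68 and 13.39 on the ICC-DMP arrays, 11.85, 13.53 and 12.88 on the ICC-MY arrays, and 9.61 and 10.34 in tissue. Each ICC array exceeded both tissue arrays, and the difference was 3.10 (SE 0.41, adjusted p = 0.0015). Fosb read 9.73, 9.65 and 10.34 on the ICC-DMP arrays, 7.63, 7.81 and 7.64 on the ICC-MY arrays, and 3.31 and 3.26 in tissue. The ICC-DMP arrays were 2.21 above the ICC-MY arrays, which were themselves far above tissue, so Fosb was not shared; its difference of 5.52 (SE 0.20, adjusted p = 1.74e-06) is read as a lower bound, its tissue values being below the array medians.

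Jun (4.63, SE 0.38), Atf3 (4.45, SE 0.29) and Junb (4.17, SE 0.28) were likewise higher on all ICC arrays, outside the shared set because their class means lay over 1 log2 apart. Jun read 11.56, 11.76 and 11.62 on the ICC-DMP arrays, 9.16, 10.46 and 8.99 on the ICC-MY arrays, and 5.61 and 6.32 in tissue. Its ICC-DMP arrays were the highest, and ICC-MY lay between them and tissue. Fosl2 (-0.44) and Jund (1.17) were not called, though Jund was with the replicate block (adjusted p = 0.00896). The list's summed level was 12.72 to 14.55 in ICC and 11.53 and 12.09 in tissue. Cell isolation separates ICC from tissue too, so its part in these values cannot be told apart.

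Of 10 EGR and NR4A genes, zinc-finger and orphan nuclear receptor factors of the same early wave, 4 were called higher with a list median of 0.42. They were Egr1, given above, Nr4a1 (3.45, SE 0.25), Egr2 (3.38, SE 0.29) and Nr4a2 (2.52, SE 0.31). Egr3 was not called by its brightest probe set (-0.03), but the mean of its probe sets differed by 1.46 with an adjusted p of 0.00172. Of 21 Kruppel-like and other growth-induced factors, 8 were called higher and 2 lower (median 0.61). Hes1, a repressor downstream of Notch, was a shared member at 9.52, 9.70 and 9.04 on the ICC-DMP arrays, 8.40, 9.32 and 8.53 on the ICC-MY arrays, and 7.12 and 7.35 in tissue. Its arrays did not overlap, and it differed by 1.85 (SE 0.27, adjusted p = 0.00288). Bhlhe40, a clock-linked repressor, was shared with 1.73 (SE 0.28), while Ier2 (3.49, SE 0.34) and Klf2 (1.91, SE 0.21) rose outside the shared set. Klf5, a factor of proliferating epithelium and muscle, was shared and lower by -0.85 (SE 0.14).

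Feedback genes of MAP kinase signalling, with the phosphatases and Sprouty proteins that restrain it and the ETS factors it induces, were higher for 8 of 19 measured members, and none was lower (median 0.98). Of the 8, 4 were shared. Spry4, a Sprouty inhibitor of receptor tyrosine kinases, read 6.46, 6.45 and 6.74 on the ICC-DMP arrays, 6.24, 6.65 and 6.70 on the ICC-MY arrays, and 5.02 and 4.47 in tissue. Its classes stood 0.02 apart and above tissue by 1.79 (SE 0.20, adjusted p = 0.000587). Dusp5, a nuclear phosphatase of ERK, was at 7.88, 8.01 and 8.07 on the ICC-DMP arrays, 7.10, 7.48 and 7.47 on the ICC-MY arrays, and 6.10 and 6.61 in tissue. Groups did not overlap, with a difference of 1.31 (SE 0.18, adjusted p = 0.00193). Spred1, which brings the RAS inhibitor neurofibromin to the membrane, differed by 1.07 (SE 0.18). Dusp6, the cytoplasmic ERK phosphatase, differed by 1.72 (SE 0.32, adjusted p = 0.00918), but its adjusted p was 0.0509 without tissue replicate 1 and 0.061 without tissue replicate 2. Outside the shared set, Dusp1 differed by 3.83 (SE 0.36) and Etv5, an ETS factor, by 2.50 (SE 0.19).

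Zfp36, which encodes tristetraprolin and speeds decay of AU-rich messenger RNA, read 10.22, 10.35 and 10.65 on the ICC-DMP arrays, 8.56, 9.15 and 8.40 on the ICC-MY arrays, and 6.10 and 5.27 in tissue. All ICC arrays were above tissue by 3.87 (SE 0.27, adjusted p = 4.77e-05), with ICC-DMP higher than ICC-MY. It was 1 of 4 of 11 mRNA decay and anti-proliferative genes called higher (median 0.79), none being lower. With the replicate block, as after quantile normalization, 7 of that list were called, and 2 were without DMP replicate 1, DMP replicate 2 or MY replicate 2. Of 31 NF-kB, cytokine and feedback genes, 11 were called higher and none lower (median 0.53), and 6 were called higher without the narrow arrays, 5 without tissue replicate 1 and 7 without DMP replicate 1 or 2. Socs3, an inhibitor of cytokine receptor signalling, led with 4.70 (SE 0.25), followed by Stat3 (3.71, SE 0.32). Of 3 other Stat3 probe sets, 1 went the same way and 0 were called that way. The NF-kB subunit Rel was shared, at 1.24 (SE 0.19). Il6 differed by 2.43 (SE 0.52, adjusted p = 0.0179), with an adjusted p of 0.0736 without tissue replicate 1 and 0.108 without tissue replicate 2. Nfkb2 (0.43) and Cxcl1 (0.53) were not called.

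Heat shock chaperones were called higher for 2 of 20 and lower for 2 (median 0.23), 20% of the list against 13.0% of all genes. Hspa1a, the inducible HSP70, differed by 4.48 (SE 0.38), and Hspa2 was lower by -1.56 (SE 0.23). After quantile normalization 6 of the list were higher and 3 lower. Growth arrest and p53 target genes were called higher for 6 of 18 and lower for 1 (median 0.28). Among them the cell cycle inhibitor Cdkn1a was shared at 9.07, 8.81 and 9.67 on the ICC-DMP arrays, 8.79, 8.98 and 9.14 on the ICC-MY arrays, and 7.30 and 7.19 in tissue. Every ICC value was above tissue, by 1.83 (SE 0.22, adjusted p = 0.00101). Sesn2, a stress-induced regulator of TORC1, was shared with 1.26 (SE 0.13), and Gadd45b rose by 4.07 (SE 0.29) with unequal classes. Perp, a p53 target of epithelial junctions, was shared and lower by -3.49 (SE 0.15, adjusted p = 3.9e-06). Of 21 genes of the unfolded protein and amino acid stress responses, 2 were higher, Ppp1r15a (2.55, SE 0.16) and Ddit3 (1.35, SE 0.19), and 1 lower (median 0.34; 5 and 2 after quantile normalization, 5 higher without MY replicate 1). The chaperone Hspa5, at 0.57, was not called. The called share of this list was 14.3%, near that of all genes.

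Promoters of Kit, of the shared gene Dusp5 and of Zfp36 are shown as examples of the marker, feedback and mRNA decay lists. All promoter sequence is RefSeq's, build GRCm38.p6, taken from the 150 bases before the gene start and written along the coding strand. Capitals mark a GC box (GGGCGG) for Kit and CArG boxes, the element bound by serum response factor, for Dusp5 and Zfp36. The Dusp5 window holds CCATATTTGG 82 bases and CCTTATATGG 72 bases before the start, side by side, and Zfp36 holds CCATAAAAGG 58 bases before it. The Kit box lies 98 bases before the start of one of 2 windows listed for the gene. The windows are chr5:75574837-75574986 (plus strand), chr19:53528995-53529144 (plus) and chr7:28379229-28379378 (minus).
Kit: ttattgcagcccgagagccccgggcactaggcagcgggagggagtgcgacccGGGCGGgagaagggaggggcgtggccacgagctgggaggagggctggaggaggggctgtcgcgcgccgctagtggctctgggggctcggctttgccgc
Dusp5: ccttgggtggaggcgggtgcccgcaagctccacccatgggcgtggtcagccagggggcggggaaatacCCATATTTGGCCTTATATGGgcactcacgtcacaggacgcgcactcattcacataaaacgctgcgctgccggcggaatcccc
Zfp36: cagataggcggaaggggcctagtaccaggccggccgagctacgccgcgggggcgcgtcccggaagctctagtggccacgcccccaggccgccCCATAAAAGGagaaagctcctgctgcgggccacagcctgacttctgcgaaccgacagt

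A search for 7 motifs was made in the 250 bases before the start of every measured gene with a RefSeq window, 14452 of 18193, leaving out chromosome 18: the cyclic AMP response element TGACGTCA, the AP-1 element TGANTCA, the CArG box, the GC box GGGCGG, the E-box CACGTG and TTCAGCACC, the left part of the RE1 element, on both strands, and TATAAA on the coding strand. Matches can overlap one another. A CArG box was found for 1.43% of all genes with a window and for 5 of 291 shared genes called higher (1.72%). The AP-1 element was found for 6.7% of all genes and 6.19% of those 291. GC boxes were found for 53.4% of all genes, for 70.4% of those called higher and shared and for 58.2% of the 1023 called lower and shared, and median GC content of the windows was 57.6%, 62.4% and 58.4%. The E-box stood at 8.73%, 9.28% and 8.7% and TATAAA at 6.73%, 5.5% and 6.16% in these sets. TTCAGCACC was found for 0.381% of all genes, 0 of the 291 and 5 of the 1023 (0.489%). A match describes letters in a window only.

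Calcium handling was mixed. Of 29 genes of calcium stores and entry, 3 were called higher and 6 lower (median 0.11; 10 and 6 after quantile normalization, 5 higher without MY replicate 1). Beside Atp2a3 and Cacna1d, the channel gene Trpc1 was higher by 1.39 (SE 0.36, adjusted p = 0.0393). Trpc1 was at 0.78 with an adjusted p of 0.282 without tissue replicate 1, and was not called either without any 1 ICC array other than MY replicate 1 (adjusted p from 0.0726 to 0.0896) or with arrays centred on their medians (0.0597). Itpr3, an inositol trisphosphate receptor, was shared and lower, at 4.53, 4.37 and 4.57 on the ICC-DMP arrays, 4.85, 4.41 and 4.82 on the ICC-MY arrays, and 6.39 and 5.95 in tissue. Both tissue arrays were above every ICC array, and the difference was -1.57 (SE 0.18, adjusted p = 0.000682). Outside the shared set, Casq2 (-2.65, SE 0.22) and Ryr2 (-1.71, SE 0.26), genes of calcium storage and release in muscle, were lower. Smooth muscle markers, 16 of 23 of them called lower, moved with these genes, and their part was not tested. The pump gene Atp2a2 (0.66) was not called.

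Regulators of G protein signalling went both ways, 5 of 23 higher and 6 lower (median -0.22; 3 higher without tissue replicate 1). Rgs10, which shortens Gi signals, was shared at 12.38, 12.79 and 12.18 on the ICC-DMP arrays, 10.95, 12.57 and 12.13 on the ICC-MY arrays, and 9.08 and 9.91 in tissue. Its ICC arrays lay above tissue, by 2.67 (SE 0.41, adjusted p = 0.00352). Rgs17 was shared and lower by -1.47 (SE 0.13), and Rgs4, outside the shared set, was lower by -2.97 (SE 0.20). Among 29 potassium channel genes 3 were higher and 7 lower (median -0.21). Kcnh2, the ERG channel that helps repolarise ICC and muscle, was shared at 10.003, 10.003 and 10.83 on the ICC-DMP arrays, 8.70, 9.35 and 10.17 on the ICC-MY arrays, and 7.23 and 7.59 in tissue. It exceeded tissue on every ICC array, by 2.43 (SE 0.38, adjusted p = 0.00368). Kcnq5 differed by 2.94 (SE 0.24) as a mean of unequal classes. Kcnk3, also called higher, differed from tissue by 3.82 in ICC-MY and by -0.51 in ICC-DMP. The A-type channel gene Kcnd2 (-2.06, SE 0.27) and that of its partner, Kcnip1 (-2.34, SE 0.21), were shared and lower. Chloride and cation transport genes were called for 2 of 19, Ano1 and the potassium-chloride cotransporter Slc12a7 (1.80, SE 0.32; adjusted p 0.061 without tissue replicate 1), both higher (median 0.17; 4 with the replicate block, 6 after quantile normalization, 0 without tissue replicate 1).

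Fatty acid synthesis genes were called higher for 5 of 22 and lower for 3 (median 0.09; 1 lower without tissue replicate 2). Scd1, the desaturase that makes oleate, was shared at 8.99, 8.65 and 8.44 on the ICC-DMP arrays, 8.92, 8.43 and 8.74 on the ICC-MY arrays, and 7.44 and 6.95 in tissue. Class means differed by 0.0034 and both exceeded tissue, by 1.501 (SE 0.21, adjusted p = 0.00225). Acacb, an acetyl-CoA carboxylase, was shared with 1.95 (SE 0.26) and Acss2, which makes acetyl-CoA from acetate, with 1.67 (SE 0.22). The 1 other Acacb probe set went the other way. Elovl2, an elongase of polyunsaturated chains, was shared and lower by -1.55 (SE 0.16). Fasn, the synthase itself, was not called at 0.38. Of 17 cholesterol synthesis genes 1 was higher, Mvd (1.24, SE 0.22; adjusted p 0.0575 without tissue replicate 1), with a list median of 0.28 and 2 called with the replicate block or after quantile normalization.

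Of 21 glycolysis and hypoxia genes 3 were higher and 1 lower (median 0.37; with the replicate block 4 and 3, after quantile normalization 5 and 3, without MY replicate 1 8 higher and without tissue replicate 2 1). Vegfa, the endothelial growth factor, was shared at 8.01, 7.86 and 8.25 on the ICC-DMP arrays, 7.22, 7.11 and 7.31 on the ICC-MY arrays, and 6.28 and 5.33 in tissue. The 6 ICC arrays exceeded tissue by 1.82 (SE 0.24, adjusted p = 0.00153). Pdk1, a kinase that holds back pyruvate oxidation, was shared and lower by -1.02 (SE 0.14). Mitochondrial respiratory chain genes, with their regulator Ppargc1a on the list, were called for 1 of 30, Ppargc1a itself at 2.28 (SE 0.40; median 0.19; 2 with the block, 4 higher after quantile normalization). No cytosolic ribosomal protein gene of 14 was called by limma, and 0 reached an unadjusted p under 0.05 (median -0.42); 6 were called lower after quantile normalization and 3 without the narrow arrays.

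The largest differences of all were toward tissue. Mesothelium, the covering of the gut's outer face, had 16 of 17 marker genes called lower in ICC, 14 of them shared, with a median of -4.37. Gpm6a, a membrane glycoprotein of mesothelium and neurons, read 3.75, 4.04 and 3.53 on the ICC-DMP arrays, 2.82, 3.20 and 2.72 on the ICC-MY arrays, and 10.18 and 11.37 in tissue. It was low on every ICC array and among the brighter values in tissue, and the difference was -7.43 (SE 0.30, adjusted p = 2.67e-06). Upk3b, a uroplakin, read 4.29, 4.35 and 4.24 on the ICC-DMP arrays, 3.77, 3.69 and 3.59 on the ICC-MY arrays, and 10.84 and 11.60 in tissue. The groups were far apart, with a difference of -7.23 (SE 0.20, adjusted p = 9.22e-07).

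Msln, mesothelin, was at 3.31, 3.53 and 3.46 on the ICC-DMP arrays, 3.29, 3.08 and 3.08 on the ICC-MY arrays, and 8.98 and 9.39 in tissue. No ICC array came near tissue, and it differed by -5.89 (SE 0.16). Wt1, the mesothelial transcription factor, read 4.26, 4.35 and 4.29 on the ICC-DMP arrays, 4.31, 4.30 and 4.30 on the ICC-MY arrays, and 6.72 and 7.01 in tissue. Its class means differed by 0.0004 and lay -2.56 (SE 0.13) from tissue. The keratins Krt19 (-5.78, SE 0.16), Krt8 (-4.62, SE 0.19) and Krt18 (-4.09, SE 0.16) were shared and lower as well, and Krt8 and Krt18 are neighbours. The list's summed level was 9.36 to 12.14 in ICC and 13.32 and 13.92 in tissue. Its ICC-DMP arrays, at 11.69 to 12.14, were above the ICC-MY arrays, at 9.36 to 9.70.

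**Figure D3:**
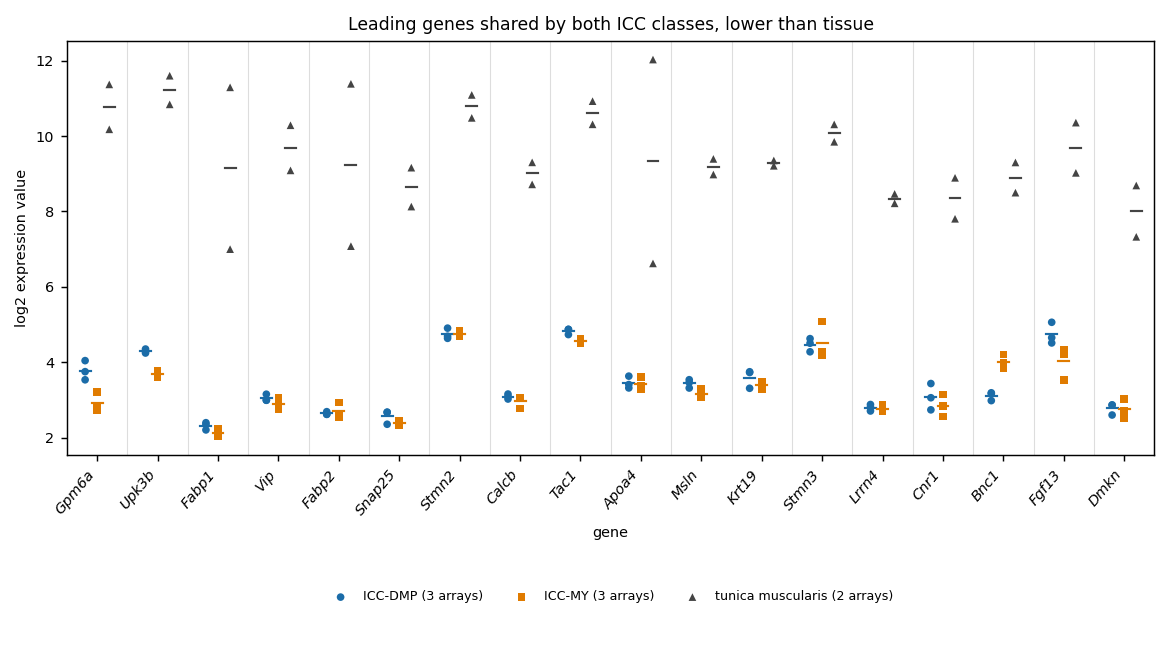
Log2 expression value (y axis) on each array for the leading shared genes lower in ICC, with points for arrays and short lines for group means. ICC points lie at the bottom of the scale and all tissue points above 6; the 2 tissue arrays are far apart for Fabp1, Fabp2 and Apoa4, where tissue replicate 1 reads 6.998, 7.08 and 6.62 and tissue replicate 2 reads 11.29, 11.38 and 12.03.

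Genes of enteric neurons formed the next group. Neuropeptides and their processing proteins were called lower for 16 of 19, with 12 shared and a median of -3.42. Vip, the vasoactive intestinal peptide of inhibitory motor neurons, read 2.99, 2.99 and 3.15 on the ICC-DMP arrays, 2.84, 2.77 and 3.05 on the ICC-MY arrays, and 9.09 and 10.29 in tissue. The ICC arrays were close to one another and were near the lower end of all values, and the difference was -6.72 (SE 0.28, adjusted p = 2.77e-06). Tac1, the substance P precursor of excitatory motor neurons, read 4.73, 4.87 and 4.87 on the ICC-DMP arrays, 4.51, 4.62 and 4.59 on the ICC-MY arrays, and 10.31 and 10.92 in tissue. It was lower on all 6 ICC arrays, by -5.92 (SE 0.17, adjusted p = 9.22e-07). Calcb (-5.99, SE 0.18) and Gal, galanin (-3.66, SE 0.26), went the same way. The list's summed level was 8.85 to 9.51 in ICC against 12.28 and 12.99 in tissue.

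Synaptic vesicle and growth cone genes were called lower for 13 of 25, 11 of them shared, and higher for 1 (median -0.67). The gene called higher, Syt4, differed from tissue by 3.30 in ICC-MY and by -0.24 in ICC-DMP. Snap25, a SNARE protein of transmitter release, was at 2.67, 2.68 and 2.35 on the ICC-DMP arrays, 2.34, 2.45 and 2.38 on the ICC-MY arrays, and 8.13 and 9.16 in tissue. All ICC arrays were at the foot of the scale, with a difference of -6.17 (SE 0.25, adjusted p = 2.67e-06). Stmn2, a microtubule regulator of growth cones, was lower by -6.04 (SE 0.18), and Syt1, the calcium sensor of release, by -5.06 (SE 0.18). The list's summed level was 11.42 to 12.27 in ICC and 13.01 and 13.14 in tissue. Neuronal cytoskeleton genes were called lower for 18 of 20, 16 of them shared (median -1.72). Nefl, the light neurofilament, read 2.67, 2.90 and 2.77 on the ICC-DMP arrays, 3.51, 3.56 and 4.13 on the ICC-MY arrays, and 7.86 and 8.13 in tissue. It was low on every ICC array, by -4.73 (SE 0.19, adjusted p = 2.67e-06). Prph, peripherin, was lower by -4.33 (SE 0.14) and Uchl1, known as PGP9.5, by -3.34 (SE 0.20).

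Transmitter synthesis and transport genes were called lower for 5 of 16 (median -0.12), 4 of them shared, and for 3 without tissue replicate 2. Nos1, the neuronal nitric oxide synthase, read 5.83, 5.88 and 6.06 on the ICC-DMP arrays, 5.86, 5.80 and 5.85 on the ICC-MY arrays, and 8.82 and 8.20 in tissue. Tissue exceeded every ICC array, and the difference was -2.63 (SE 0.18, adjusted p = 3.53e-05). Slc18a2, the vesicular monoamine transporter, was lower by -2.46 (SE 0.27). Factors of the enteric neuron lineage were called lower for 8 of 18 (5 without DMP replicate 2) and higher for 1 (median -0.57; 4 higher after quantile normalization), with Elavl4, the neuronal RNA-binding protein HuD, lower by -4.23 (SE 0.16) and Phox2a by -1.53 (SE 0.14). Ret, the GDNF receptor of enteric progenitors, was lower by -4.09 (SE 0.19) outside the shared set. Sox11, the lineage factor called higher, went opposite ways in the classes, by 2.73 from tissue in ICC-DMP and by -1.02 in ICC-MY.

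Promoters of a pair of neuropeptide-pathway genes, both lower on all ICC arrays with class means over 1 log2 apart and so outside the shared set, are shown for the cyclic AMP response element, which 4 of the 13 called members with a window hold (30.8%), against 2.5% of all genes, 12 of the 291 genes higher and shared (4.12%) and 22 of the 1023 lower and shared (2.15%). Capitals mark TGACGTCA, 72 bases before the start of Chgb, chromogranin B, and 68 before that of Scg2, secretogranin II, both proteins of dense-core granules. The windows are chr2:132781492-132781641 (plus) and chr1:79440027-79440176 (minus) of GRCm38.p6, from RefSeq. Chgb differed by -3.82 (SE 0.37) and Scg2 by -4.73 (SE 0.34) between ICC and tissue.
Chgb: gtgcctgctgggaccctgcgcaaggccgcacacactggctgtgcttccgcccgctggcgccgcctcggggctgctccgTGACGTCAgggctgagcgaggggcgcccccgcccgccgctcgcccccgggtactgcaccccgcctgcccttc
Scg2: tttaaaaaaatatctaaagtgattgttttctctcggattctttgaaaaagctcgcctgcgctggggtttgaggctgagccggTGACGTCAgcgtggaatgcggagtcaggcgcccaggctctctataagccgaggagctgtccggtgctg

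Enteric glia and Schwann cell markers were called lower for 9 of 16, 7 of them shared (median -1.18). Erbb3, the neuregulin receptor of the glial lineage, read 5.60, 5.72 and 5.59 on the ICC-DMP arrays, 4.52, 4.95 and 4.71 on the ICC-MY arrays, and 7.43 and 7.76 in tissue. Its tissue arrays were both higher than all ICC arrays, and the difference was -2.42 (SE 0.16, adjusted p = 3.26e-05). Mbp, myelin basic protein, was lower by -1.83 (SE 0.13), with 5 of 7 other probe sets called the same way, and Apoe by -3.46 (SE 0.48). S100b (-0.33) was not called. The summed level was 9.34 to 9.55 in ICC and 11.01 and 11.78 in tissue.

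Macrophage markers were called lower for 15 of 25, and all 15 were shared (median -1.29). Csf1r, the receptor that macrophages need to survive, read 5.57, 5.85 and 5.67 on the ICC-DMP arrays, 6.83, 6.04 and 6.28 on the ICC-MY arrays, and 10.15 and 11.49 in tissue. ICC arrays were several units below tissue, by -4.78 (SE 0.34, adjusted p = 5.15e-05). Mrc1, the mannose receptor of resident macrophages, was at 3.11, 3.16 and 2.93 on the ICC-DMP arrays, 3.11, 3.04 and 3.19 on the ICC-MY arrays, and 6.84 and 7.84 in tissue. It was lower on all ICC arrays, by -4.25 (SE 0.24, adjusted p = 1.42e-05). Cd163 differed by -2.31 (SE 0.27) and Ctss, cathepsin S, by -4.84 (SE 0.49). The list summed to 10.06 to 11.70 in ICC, highest on MY replicate 1, and to 12.37 and 12.41 in tissue.

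Intestinal epithelium markers, genes of a layer that the muscle coat should lack, were called lower for 5 of 20 (median -1.44), with 10 called with the replicate block, 15 without the narrow arrays or without tissue replicate 1 alone, and 3 without any 1 ICC array other than MY replicate 1. Fabp1, a fatty acid binding protein of enterocytes, read 2.39, 2.35 and 2.20 on the ICC-DMP arrays, 2.08, 2.23 and 2.04 on the ICC-MY arrays, and 6.998 and 11.29 in tissue. The tissue arrays were themselves 4.29 apart, and the difference was -6.93 (SE 0.88, adjusted p = 0.00122). Apoa4 read 3.63, 3.41 and 3.32 on the ICC-DMP arrays, 3.61, 3.36 and 3.28 on the ICC-MY arrays, and 6.62 and 12.03 in tissue. It showed the same split, with tissue replicate 2 far the highest and a difference of -5.89 (SE 1.10, adjusted p = 0.00929). The list's summed level was 8.57 to 9.49 in ICC, 10.06 on tissue replicate 1 and 13.72 on tissue replicate 2. The part of this difference between the tissue arrays in other results was not tested.

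Fibroblast and PDGFRA cell genes were called lower for 9 of 20, 8 of them shared (median -0.84). Fbln2, fibulin 2, read 4.58, 3.96 and 4.22 on the ICC-DMP arrays, 4.36, 3.86 and 3.67 on the ICC-MY arrays, and 7.84 and 6.77 in tissue. All ICC arrays were below tissue, and the difference was -3.20 (SE 0.31, adjusted p = 0.000284). Thy1 (-2.29, SE 0.25) and Mfap5, a microfibril protein (-2.54, SE 0.38), were shared and lower, and Cd34, outside the shared set, was lower by -3.04 (SE 0.47). Pdgfra, at -0.72, was not called and differed by 0.05 without tissue replicate 2. Summed levels overlapped, at 13.56 to 15.10 in ICC and 14.66 and 15.89 in tissue.

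Smooth muscle contractile genes were called lower for 16 of 23 (median -2.08). All ICC arrays lay below tissue for 10 of the 23, as for 2488 of all 18193 genes, and only 2 were shared. Des, desmin, was 1 of the 2, at 7.74, 8.26 and 8.17 on the ICC-DMP arrays, 6.85, 7.89 and 7.91 on the ICC-MY arrays, and 9.78 and 10.16 in tissue. Each ICC array was below both tissue arrays, by -2.17 (SE 0.30, adjusted p = 0.00208), and Lmod1, leiomodin, was the other, at -1.08 (SE 0.17). Cnn1, calponin, read 9.49, 9.60 and 9.42 on the ICC-DMP arrays, 6.32, 6.89 and 6.62 on the ICC-MY arrays, and 10.66 and 11.44 in tissue. The ICC-MY arrays were far below tissue and the ICC-DMP arrays nearer to it, so the mean difference of -2.99 (SE 0.23) joined a -1.55 difference in ICC-DMP with a -4.44 difference in ICC-MY. Myh11, smooth muscle myosin, was lower by -2.40 (SE 0.40). Of the 23 genes, 22 were called lower without the narrow arrays. The list summed to 15.82 to 16.13 in ICC-DMP, 13.84 to 15.01 in ICC-MY and 15.70 and 16.86 in tissue.

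Markers of blood vessels were split. Endothelial genes were called lower for 2 of 19 and higher for 2 (median -0.07; 4 higher after quantile normalization). Vwf, von Willebrand factor, was shared and lower by -2.68 (SE 0.24), Plvap (1.88, SE 0.23) and Eng (1.87, SE 0.28) were higher with unequal classes, and Kdr (-1.03) was not called. Pericyte genes were called higher for 3 of 11, with Pdgfrb at 2.64 (SE 0.33), and lower for 1, Des (median -0.09; 3 lower with the replicate block). No mast cell gene of 12 was called by limma, and 1 had an unadjusted p under 0.05 (median 0.03), and this list of a cell that also carries Kit summed to 7.30 to 7.73 in ICC and 7.46 and 7.58 in tissue. Lymphocyte genes were called for 1 of 13, Icos, at 2.40 (SE 0.37; list median 0.12), and the list summed to 10.91 to 11.57 in ICC-MY, 8.55 to 8.58 in ICC-DMP and 9.20 and 8.38 in tissue. Icos alone read 10.35, 11.42 and 11.30 on the ICC-MY arrays and so made up most of that sum. In ICC-DMP it differed from tissue by -0.17. Red blood cell genes were called for 1 of 5, Alas2, lower by -0.71 (SE 0.14; adjusted p 0.104 without tissue replicate 1; median -0.14). Alas2 lay below the array medians throughout, at 2.85 to 3.14 in ICC and 3.83 and 3.57 in tissue. The red blood cell list summed to 8.60 to 9.54 in ICC and to 8.52 and 8.76 in tissue.

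**Figure D4:**
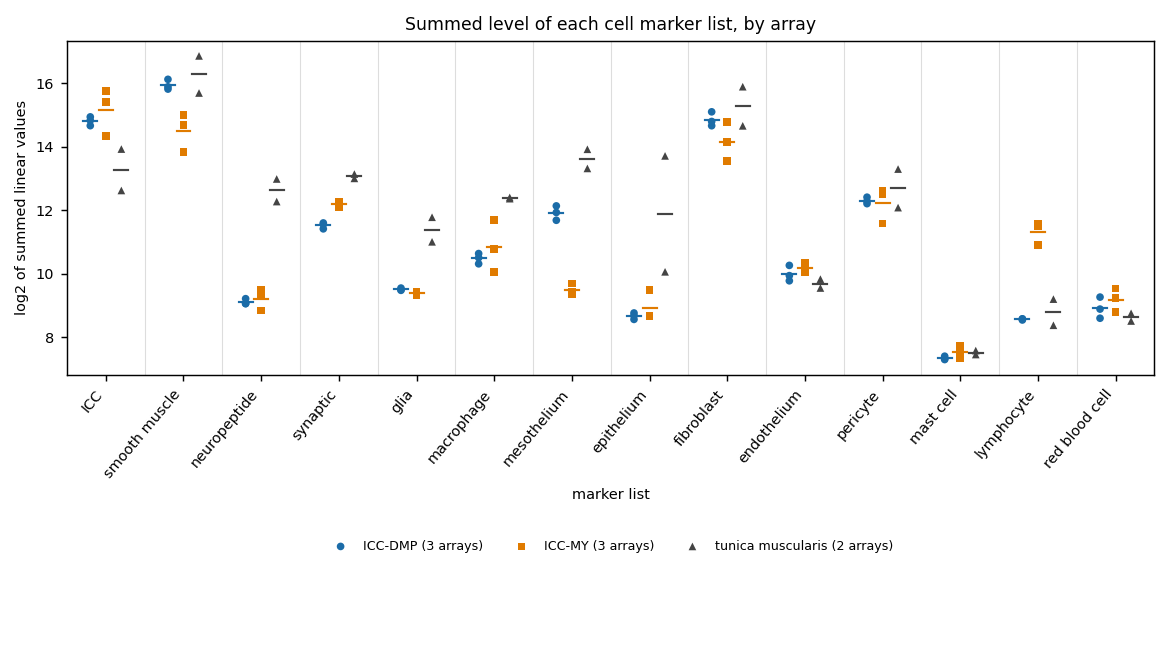
Summed level of each marker list (log2 of the sum of linear values, y axis) on each array, with short lines for group means. Neuropeptide, glial, macrophage, mesothelial and epithelial lists lie higher in tissue than in all 6 ICC arrays, the ICC list lies lower, and smooth muscle and fibroblast lists overlap.

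Among shared genes outside the lists, Dpp4, a surface peptidase, was lower by -4.85 (SE 0.17), Cnr1, the cannabinoid receptor of enteric neurons, by -5.39 (SE 0.31) and the growth factor genes Fgf9 by -5.13 (SE 0.18) and Fgf13 by -5.31 (SE 0.36). Over the 1341 shared genes called lower the median difference was -1.19, with 870 at least 2-fold and 127 at least 8-fold. Their median level was 4.69 in ICC and 6.43 in tissue, and 744 of them averaged under 5 in ICC, close to the array medians. The corresponding medians for shared genes called higher were 7.29 in ICC and 6.19 in tissue, and 32 of 365 averaged under 5 in ICC. Another probe set existed for 714 of the lower genes, went the same way throughout for 490, was called the same way for 273 and the opposite way for 13. In 132 cases such genes were chromosome neighbours, as with Nefl and Nefm, and Cfb and C2. Here too the number that a random choice of 1341 genes would give was not worked out. Long noncoding RNAs made up 1.35% of the 1336 with a known place.

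**Figure D5:**
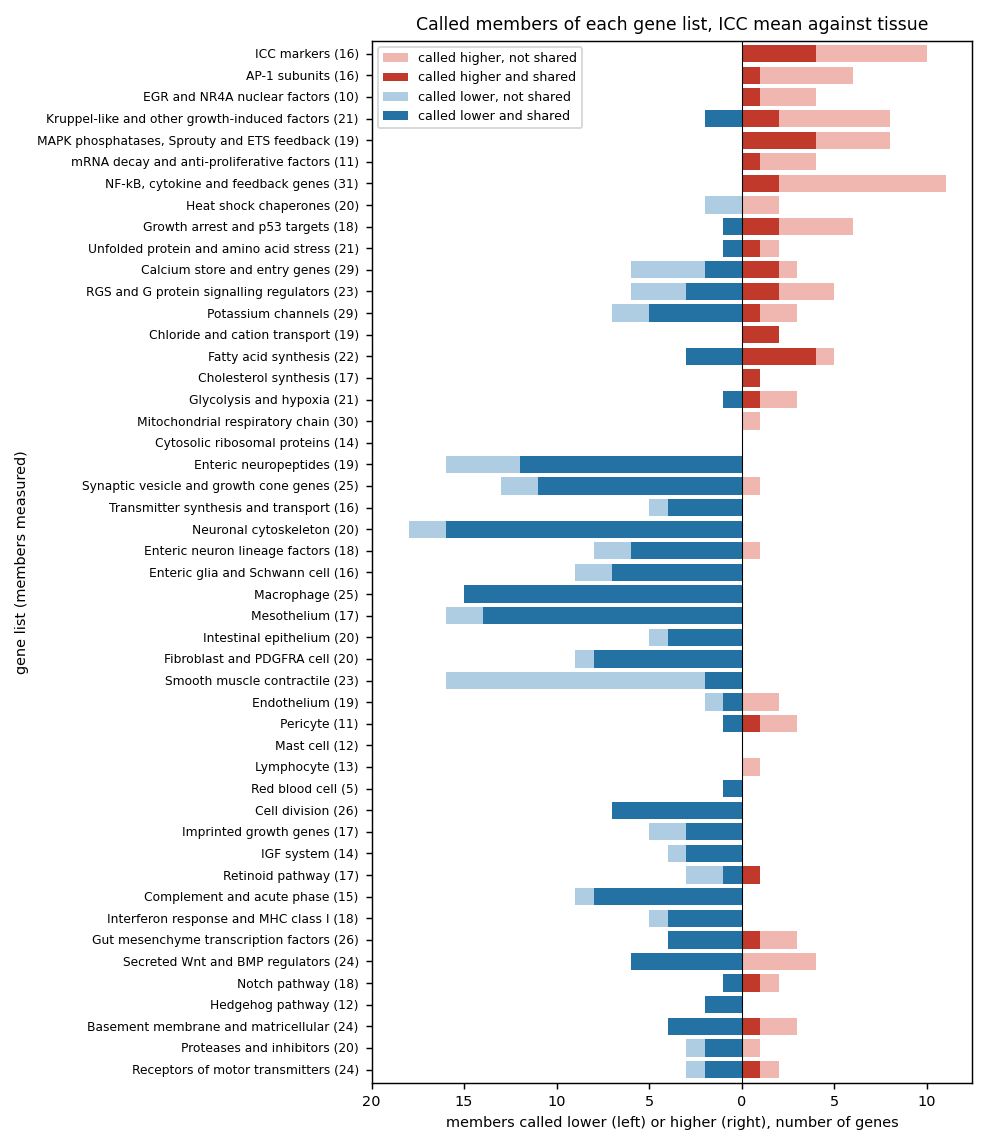
Number of called members of each gene list (x axis), lower in ICC to the left and higher to the right, with the measured list size in brackets; dark bars are shared members. Neuronal, mesothelial and macrophage lists extend to the left with mostly dark bars, the smooth muscle list reaches 16 with 2 shared, and the early response lists extend to the right with few shared members.

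Agreement between the classes varied within the shared set. Members just inside the 1 log2 bound were Slc20a1 (0.996 between ICC-DMP and ICC-MY), Rgs16 (-0.99) and St6galnac4 (-0.995) among genes higher, and Synpo (0.99), Glrb (-0.997) and Reep1 (0.999) among genes lower. Just outside lay Hmbox1 (1.004), Slit3 (-1.01) and Hoxb4 (1.004), and Srgap3 (-1.02), Serpinb6a (1.003) and Csrp2 (1.01). The smallest gaps among higher genes belonged to Scd1, Sesn2, Grhl1, Phxr4 and Gpbp1l1, and among lower genes to Wt1, Cnp, Syt16, Megf6 and Capsl. Gpbp1l1 was not called with the replicate block (adjusted p = 0.0824). Without tissue replicate 1 the adjusted p was 0.141 for Slc20a1, 0.125 for Grhl1, 0.16 for Phxr4 and 0.224 for Capsl, and without tissue replicate 2 it was 0.164 for Rgs16, 0.17 for St6galnac4, 0.0854 for Synpo and 0.181 for Gpbp1l1. Genes with all ICC arrays on one side of tissue but class means 1 log2 or more apart numbered 144 higher and 200 lower, of which 137 and 198 were called. Kcnq5 (4.30) and Usp53 (3.97) had the widest gaps among the higher genes and Serpinb1a (4.05) and Tnnt2 (3.78) among the lower, all 4 with ICC-DMP above ICC-MY. For the ICC mean against tissue, 1 of 2 other Kcnq5 probe sets went the same way and 0 were called that way. Usp53 read 3.43 and 6.11 in tissue, against 6.31 on its lowest ICC array. In ICC-MY alone limma called neither Kcnq5 (adjusted p = 0.1) nor Usp53 (adjusted p = 0.0774) against tissue. Called genes whose ICC and tissue arrays overlapped numbered 169 higher and 156 lower. Such a mean can rest on 1 class. From tissue, ICC-DMP and ICC-MY differed by -0.06 and 4.46 for Prkcq, by 3.16 and -0.31 for Sfrp1 and by 1.86 and 0.005 for Tob1. Of the shared genes called as a mean, each class on its own was also called for 183 of 365 higher and 898 of 1341 lower, both contrasts using the same 2 tissue arrays.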

How the data were processed

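Affymetrix arrays measured about 50 ng of total RNA per sample, amplified in 2 rounds, in 3 ICC-DMP, 3 ICC-MY and 2 tunica muscularis samples. Expression was deposited on a log2 scale, 1 value for each probe set; the submitters' processing notes name RMA and limma, with no version or role. Pooling of cells or animals was not given in the sources used here, and depth has no meaning for arrays, whose number limits precision. Of 45101 probe sets, 64 controls were left out and 34945 named 1 gene of the platform annotation, which can be old. Each of 18193 genes took its brightest probe set on average.

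The 3 groups were fitted in limma 3.58.1 (R 4.3.3; residual df 5, prior df 3.17), with 2-sided moderated tests and Benjamini-Hochberg adjustment, and the script was tested on simulated data. The members and the 48 gene lists (921 measured entries, 894 genes) were chosen with earlier results of these data known. Over all genes 3.69% were called higher and 9.32% lower, and each list count is to be read beside these shares. Named genes are the markers, up to 30 leading shared genes per direction, leading members of each list, and genes with the smallest, largest and near-bound class gaps; the members given as not called were chosen after their values were seen. Deviations from group means correlated at 0.155 to 0.608 in 7 same-numbered pairs, against -0.608 to 0.169 in 14 other pairs. Centring makes the 2 tissue arrays mirror each other, as with MY replicate 1 (0.577 and -0.577), so these pairs are not independent. They cannot settle whether the titles' replicate numbers pair the samples. Alternatives were normalization, probe set choice, a filter on dim genes, array weights, variance trend, replicate block, 1 ICC group, left-out arrays and the class gap.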

Additional observations from a re-analysis of the deposited data

Results flagged for a closer look

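In the limma contrast of ICC-DMP minus ICC-MY, the genes below were named in the text, lay outside the shared set and differed between the classes, with adjusted p-values from 3.3e-05 to 0.0494. Their mean over both classes joins unequal values. Higher in ICC-DMP were Kcnq5 (4.301), Serpinb1a (4.055), Usp53 (3.969), Tnnt2 (3.781) and Plvap (2.966). The muscle and calcium store genes Myh11 (3.207), Cnn1 (2.894), Ryr2 (2.397) and Casq2 (2.386) were higher in ICC-DMP, as were Hspa2 (2.142), Pdgfra (2.098) and Rgs4 (1.936).

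Of the immediate-early, feedback, cytokine and stress lists, these were higher in ICC-DMP: Nr4a2 (2.968), Klf2 (2.896), Nr4a1 (2.254), Fosb (2.213), Jun (2.111), Atf3 (2.046), Stat3 (1.854), Ppp1r15a (1.814), Zfp36 (1.698), Gadd45b (1.63), Fosl2 (1.589), Dusp1 (1.581), Egr2 (1.477), Ier2 (1.394), Socs3 (1.232) and Etv5 (1.061). Il6, at -2.93, was higher in ICC-MY. Chgb (1.508), Hoxb4 (1.004), Hmbox1 (1.004) and Serpinb6a (1.003) were also higher in ICC-DMP.

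Higher in ICC-MY were Icos (-5.139), Edn3 (-3.622), Cacna1h (-3.328), Slc12a2 (-2.436), Eng (-2.106), Cd44 (-1.762), Ppargc1a (-1.562), Pdgfrb (-1.475), Ret (-1.464), Srgap3 (-1.018) and Slit3 (-1.014). Shared genes, left out of these lists, could differ between the classes in the same limma contrast too. Examples were Synpo (0.99, adjusted p = 0.0055), Tpp2 (0.98, adjusted p = 0.0172), Ddit3 (0.86, adjusted p = 0.0244) and Mvd (-0.97, adjusted p = 0.0329). Against tissue, limma did not call ICC-DMP alone for Synpo (-0.30, adjusted p = 0.423) or Mvd (0.76, adjusted p = 0.106). Groups of 2 and 3 arrays were too small for a search for single outlying arrays.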

How the results depend on the processing

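The 4 marker differences kept their sign under the alternatives run; over left-out arrays Ano1 ranged from 1.32 (without tissue replicate 1, not called) to 2.79, Kit from 2.98 to 4.21, Atp2a3 from 2.77 to 3.36 and Elovl6 from 1.98 to 2.35. Atp2a3 was at 1.79, still called, with the mean of its probe sets. With the ICC arrays as 1 group limma did not call 34 of the genes named and called, among them Elovl6 (2.13, adjusted p = 0.0566) and 9 shared genes, Ddit3 (0.0582), Lmod1 (0.0771), Slc4a3 (0.0886), Mvd (0.122), Tbx3 (0.128), St6galnac4 (0.132), Rgs16 (0.14), Slc20a1 (0.17) and Synpo (0.316). Over left-out arrays, genes called ranged from 1747 to 2971, higher from 305 to 1139 and lower from 1163 to 1832, shared genes from 1091 to 2931 and from 2378 to 4736, and those also called from 151 to 647 and from 947 to 1472. With the replicate block limma called 3191 genes, and the block changed no call of a named gene other than those given with it. Quantile normalization gave 3947 calls, 1976 of them higher, 2802 shared genes higher and 1354 of these called. Leaving out dim genes gave 1542 calls, 973 lower, with 1152 shared lower and 652 of these called. The ICC arrays as 1 group gave 1326 calls, 243 higher and 1083 lower, with 213 shared and called higher; unequal classes add to the spread there by construction. The mean of a gene's probe sets gave 630 shared and called higher, and a class gap of 0.5 gave 225. Without both narrow arrays 3249 genes were shared higher and 5160 lower, where fewer arrays have to agree. Counting every probe set gave 6128 calls, 3141 higher and 2987 lower, with 4487 and 4320 shared and 2105 and 2453 of these called. Signs turned for Egr3 (0.19 after quantile normalization, 1.46 with mean probe sets, -0.20 to 0.15 over left-out arrays, 0.0099 without DMP replicate 1, 0.12 without the narrow arrays), Gja1 (-0.15 to 1.63 over left-out arrays, lowest without tissue replicate 1) and Pdgfra (-1.49 to 0.0496 over left-out arrays, highest without tissue replicate 2). Other list counts that leaving out 1 array moved by over 1.5 times started from 0 to 2 genes. Where not stated, the cause was not tested. With 2 tissue arrays, and many levels near the array medians, small differences are not resolved.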

Other observations

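Cell division genes were called lower in ICC for 7 of 26 and higher for none, with 7 shared and a median difference of -0.73 against -0.023 over all genes. Ccne2, an S phase cyclin, read 4.88, 4.76 and 3.81 on the ICC-DMP arrays, 4.65, 4.92 and 4.52 on the ICC-MY arrays, and 7.26 and 6.89 in tissue. It was lower on all 6 ICC arrays, by -2.48 (SE 0.29, adjusted p = 0.000704). Ccna2 differed by -1.32 (SE 0.19) and the spindle motor gene Kif11 by -1.33 (SE 0.18). With the replicate block, as after quantile normalization, 13 of the 26 were called lower; without MY replicate 1 it was 12 and without tissue replicate 1 it was 4. Complement and acute phase genes were called lower for 9 of 15, 8 of them shared (median -1.14; 5 without tissue replicate 2), with C2 at -3.89 (SE 0.36), Cfb at -2.61 (SE 0.25) and the complement inhibitor Cd55 at -2.53 (SE 0.19). Interferon response and MHC class I genes were called lower for 5 of 18, 4 of them shared (median -0.51), among them Oasl2 at -1.88 (SE 0.15) and Ifit2 at -2.11 (SE 0.27). These lists moved with the macrophage and mesothelium markers, whose part was not tested.

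Imprinted growth genes were called lower for 5 of 17 (median 0.05; 3 without tissue replicate 2 or without any 1 array of ICC-DMP or MY replicate 3), with Dlk1, a Notch-like ligand, shared at -1.59 (SE 0.31). In the IGF system 4 of 14 were lower (median -0.02; 1 without tissue replicate 2, 2 without any 1 ICC-DMP array), and Igfbp6 had the widest difference, -5.24 (SE 0.22), outside the shared set. Retinoid pathway genes were called higher for 1 of 17 and lower for 3 (median -0.16); Rbp4, the retinol carrier, was shared at -2.88 (SE 0.15). Of 26 gut mesenchyme transcription factors 3 were higher and 4 lower (median 0.18; 5 and 7 with the replicate block, 7 and 5 after quantile normalization, 5 higher without MY replicate 1 or tissue replicate 2). Among the genes called higher, Irx3 and Irx5 differed from tissue by 3.90 and 4.44 in ICC-DMP, but by -0.62 and -0.09 in ICC-MY. Beside Foxf1, the shared members called were Gata6 (-1.99, SE 0.28), Nr2f1 (-1.61, SE 0.16), Sox6 (-1.11, SE 0.14) and Tbx3, all lower; Tbx3, at -0.82 (SE 0.22), had an adjusted p of 0.271 without tissue replicate 2.

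Secreted Wnt and BMP regulators were called higher for 4 of 24 and lower for 6 (median -0.01). The 6 lower genes were shared, among them Rspo1 (-3.43, SE 0.17), Sfrp2 (-2.29, SE 0.18), the activin antagonist Fst (-1.85, SE 0.14) and Bmp4 (-1.53, SE 0.18), whereas none of the 4 higher was. In the Notch pathway 2 of 18 were higher and 1, Hey2 (-1.31, SE 0.16), lower (median -0.16; 4 higher after quantile normalization). In the Hedgehog pathway 2 of 12 were lower (median -0.12), including the decoy receptor Hhip (-1.17, SE 0.18). The called share was 16.7% in the Notch list and 16.7% in the Hedgehog list, near the 13.0% of all genes. Basement membrane and matricellular genes were called higher for 3 of 24 and lower for 4 (median 0.05; 5 higher after quantile normalization, 7 lower without the narrow arrays), with Col18a1 shared at -3.09 (SE 0.19) and Thbs1 higher by 1.99 (SE 0.22). Proteases and inhibitors were called higher for 1 of 20 and lower for 3 (median -0.10; 3 higher after quantile normalization); Adamts5 was shared at -2.40 (SE 0.24). The called share of that list was 20%. Receptors of motor transmitters were called higher for 2 of 24 and lower for 3 (median 0.01; 4 and 4 with the replicate block, 6 and 4 after quantile normalization). Htr4, another serotonin receptor gene and called higher, differed from tissue by 2.17 in ICC-DMP and by -0.57 in ICC-MY. The serotonin receptor gene Htr2b was shared and lower by -2.60 (SE 0.31).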
